A study of Mus musculus with 16 samples.

Results

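The olfactory epithelium renews its sensory neurons throughout life from basal cells, and 9 genes of that lineage, listed by symbol, are described here: Neurog1, Neurod1, Insm1, Hes6, Tex15, Kit, Krt5, Krt14 and Trp63. Of these, 8 had a probe set on the array, each with 1 probe set, among 22206 tested probe sets and 19505 named genes. Neurod1 was not analysed here. The array was the Clariom S mouse array, and each value below is the deposited log2 signal of a probe set. Signals of different probe sets are not compared with each other, since a probe set's brightness also depends on its probes.

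The samples came from dissociated olfactory mucosa of S100a5-tauGFP mice, in which green fluorescent protein (GFP) reports S100a5, a calcium-binding protein gene of active olfactory sensory neurons. All groups carried this reporter, and 24 mice of both sexes, aged 7 to 12 weeks, were used. Each mouse was kept alone under an airflow of 3.1 L/min for 40 h, and from 26 h onwards received a 10 s pulse every 20 min, either of 2-hexanone, a ketone odorant (odor), or of filtered air (vehicle). Cells of 3 mice were pooled and sorted by GFP, so that 4 odor pools and 4 vehicle pools each gave a GFP+ and a GFP- sample. The 4 groups of 4 arrays were odor GFP+, odor GFP-, vehicle GFP+ and vehicle GFP-, and 50 to 100 ng of RNA entered each labelling. GFP- cells are the rest of the mucosa, including neurons without the reporter signal, so GFP- is not a single cell type.

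Horizontal basal cells, the quiescent reserve stem cells of this epithelium, contain the keratins Krt5 and Krt14 and the transcription factor p63, encoded by Trp63, which holds them in the resting state. Globose basal cells divide and pass through a proneural stage, in which the basic helix-loop-helix factors Neurog1 and Neurod1 and the zinc finger factor Insm1 direct daughter cells towards the neuronal fate. Kit, a receptor tyrosine kinase, marks a subset of globose basal progenitors and is also carried by mast cells and by blood progenitors. Hes6 is a Hes family member that opposes Hes1 and promotes neuronal differentiation, and Tex15 is known from male germ cells, where it acts in meiotic recombination and transposon silencing.

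RefSeq promoter windows of assembly GRCm38.p6, from 250 bases before to 50 after a start site, were at hand for 5 of the 8 genes, in 7 windows (Neurog1, Hes6, Kit, Krt5 and Krt14). The 4 below are shown because they set 2 genes that were lower in GFP+ cells, Kit and Neurog1, beside 2 basal keratins that did not pass the test. Capitals mark CANNTG, the E-box core that basic helix-loop-helix factors bind, which reads the same on both strands. The windows are chr5:75574737-75575036 on the plus strand for Kit, chr13:56252131-56252430 on the minus strand for Neurog1, chr15:101712856-101713155 on the minus strand for Krt5 and chr11:100205981-100206280 on the minus strand for Krt14.
Kit: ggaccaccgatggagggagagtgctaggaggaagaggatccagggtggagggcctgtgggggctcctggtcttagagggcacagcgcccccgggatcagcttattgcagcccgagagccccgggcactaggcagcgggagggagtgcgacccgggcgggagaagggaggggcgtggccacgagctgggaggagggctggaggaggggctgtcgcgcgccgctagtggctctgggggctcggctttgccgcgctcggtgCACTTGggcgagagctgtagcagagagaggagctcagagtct
Neurog1: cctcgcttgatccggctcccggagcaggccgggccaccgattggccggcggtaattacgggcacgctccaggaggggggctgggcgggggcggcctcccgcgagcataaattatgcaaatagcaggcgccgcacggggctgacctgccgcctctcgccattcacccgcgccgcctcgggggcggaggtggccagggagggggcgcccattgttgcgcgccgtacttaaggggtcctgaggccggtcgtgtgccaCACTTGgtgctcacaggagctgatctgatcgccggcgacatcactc
Krt5: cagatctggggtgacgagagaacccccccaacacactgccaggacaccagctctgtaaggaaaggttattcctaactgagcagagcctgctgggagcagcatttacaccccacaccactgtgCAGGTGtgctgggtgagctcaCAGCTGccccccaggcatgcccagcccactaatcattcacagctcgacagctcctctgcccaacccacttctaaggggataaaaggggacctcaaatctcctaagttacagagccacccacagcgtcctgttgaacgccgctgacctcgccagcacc
Krt14: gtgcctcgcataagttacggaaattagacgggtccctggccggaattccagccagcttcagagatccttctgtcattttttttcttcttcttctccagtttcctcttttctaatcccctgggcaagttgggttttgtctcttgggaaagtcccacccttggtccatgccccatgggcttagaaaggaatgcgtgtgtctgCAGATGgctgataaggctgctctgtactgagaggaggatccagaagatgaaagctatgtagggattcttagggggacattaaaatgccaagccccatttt

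Kit and Neurog1 held 1 E-box each, with the letters CACTTG in both, 8 and 4 bases after the start. Krt5 held 2 (CAGGTG and CAGCTG) and Krt14 held 1 (CAGATG). The 2 Hes6 windows held 3 and 1. Among 32851 RefSeq windows of this length, 72.3% held at least 1 CANNTG, so its presence does not set these genes apart. CACNAG on either strand, the N-box of Hes proteins, stood in 42.5% of all windows and occurred 3 times in Kit, 1 time in Krt5 and not in Neurog1 or Krt14. The GC content was 69.0% for Kit and 69.3% for Neurog1, against 57.7% for Krt5, 48.3% for Krt14 and a median of 52.7% over all windows. The windows of Hes6, which did not pass the test either, had 62.0% and 65.0%. These matches describe letters and are not measured binding.

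Before the results, 2 features of the arrays bear on them. As a background floor, the highest of 23 background probe bins was taken on each array, and it lay between 6.16 and 7.33. Between 39.8% and 49.1% of probe sets lay above it. The highest deposited value was 19.81, more than 16 bits can hold, and how the scale was made is not stated, which limits the reading of every log2 difference as a size. The replicate 1 pools of both treatments stood apart along the second principal component, which held 6.45% of the variance. Their 4 arrays lay between -39.7 and -33.9, and the other 12 between -0.221 and 45.5. Markers of mature olfactory neurons (Omp and others) had 7 of 8 genes above the floor on all arrays of every group, with a log2 summed level of 21.4 to 21.5 in odor GFP+, 21.2 to 21.5 in odor GFP-, 21.2 to 21.6 in vehicle GFP+ and 21.2 to 21.4 in vehicle GFP- arrays. The brightest genes weigh most in this sum, such as Stoml3 (mean 19.78 in odor GFP+) and Omp (19.45), which lay near the highest deposited value. By the test given below, 1 of the 8 was called higher in GFP+ cells in odor and 2 in vehicle, and 0 lower. These were Ano2 (0.68 in odor and 0.64 in vehicle) and, in vehicle only, Adcy3 (0.50).

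In both treatments Kit, Tex15, Insm1 and Neurog1 were lower in GFP+ cells than in GFP- cells, and no member was higher. Kit and Tex15 lay above the background floor on all GFP- arrays and on no GFP+ array, and no other member lay above it on more than 1 array. Hes6, Krt5, Krt14 and Trp63 did not pass the test in either treatment. Among all probe sets, 14.9% passed in odor (1175 higher and 2124 lower, 9.56% lower) and 15.7% in vehicle (1295 higher and 2189 lower, 9.86% lower), against 4 of 8 members lower in each. The members' median difference was -0.70 in odor and -1.14 in vehicle, beside 0.14 and 0.14 over all probe sets. The test was limma's moderated test over all 16 arrays, with Benjamini-Hochberg adjustment over 22206 probe sets and a threshold of 0.05. In sorted pools, fewer cells carrying a transcript and less transcript per cell cannot be told apart. The labels do not say that the pools were independent litters or sorts, so p-values measure the spread between these pools only.

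**Figure D1:**
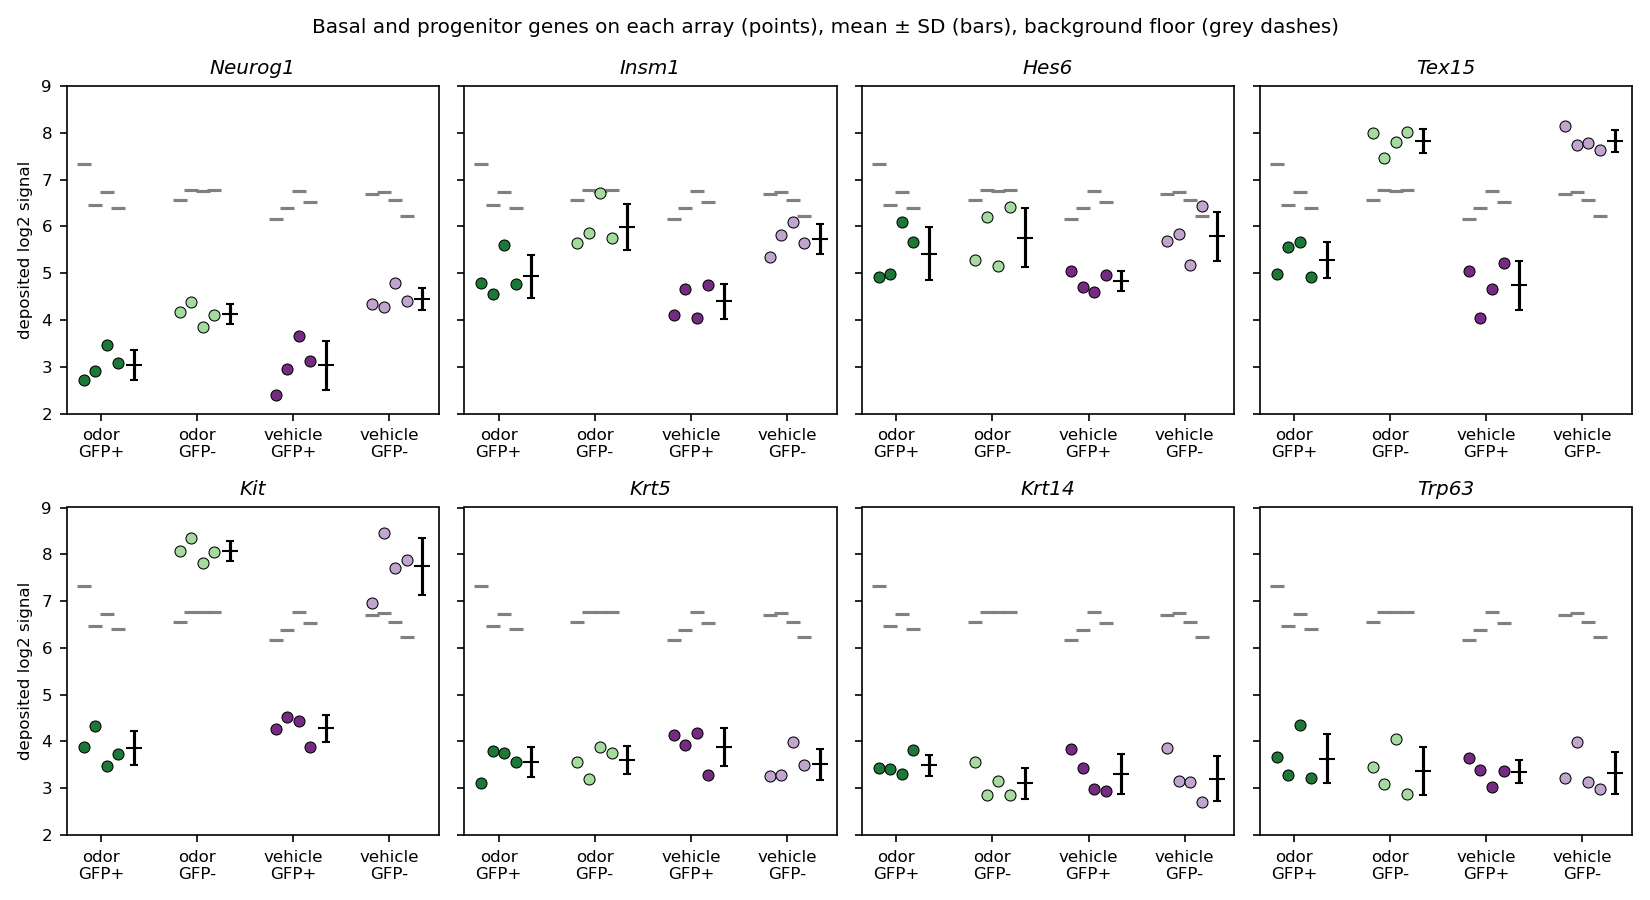
Deposited log2 signal of each of the 8 genes on all 16 arrays, with a panel per gene and a column per group (odor GFP+, odor GFP-, vehicle GFP+, vehicle GFP-). Points are arrays, bars are the mean and SD of 4 arrays, and grey dashes mark the background floor. Kit and Tex15 lie above the floor in both GFP- groups and under it in both GFP+ groups, and Krt5, Krt14 and Trp63 lie under it throughout.

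Neurog1, the proneural factor that starts neuronal commitment in globose basal cells, had log2 signals of 2.71, 2.92, 3.46 and 3.07 in odor GFP+ arrays (replicates 1 to 4), against 4.18, 4.38, 3.86 and 4.11 in odor GFP- arrays. In vehicle the GFP+ arrays had 2.39, 2.96, 3.65 and 3.13, against 4.34, 4.27, 4.80 and 4.41 in GFP- arrays. Every GFP+ array was lower than every GFP- array in both treatments, and each of the 16 values lay under the floor and also under the median background bin. The difference was -1.09 ± 0.24 (SE) in odor (adjusted p = 0.00315) and -1.42 ± 0.24 in vehicle (adjusted p = 0.000257). No fold is given, since both groups lay under background.

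Insm1, which pushes progenitors from dividing at the apical side to basal neurogenic divisions, had log2 signals of 4.79, 4.56, 5.60 and 4.77 in odor GFP+ arrays, against 5.64, 5.85, 6.71 and 5.76 in odor GFP- arrays. In vehicle it had 4.11, 4.67, 4.05 and 4.76 in GFP+ arrays, against 5.35, 5.81, 6.10 and 5.65 in GFP- arrays. The groups did not overlap in either treatment, and all 16 values lay under the floor. All 8 GFP- arrays lay above the median background bin, as did 1 odor GFP+ array and no vehicle GFP+ array. The difference was -1.06 ± 0.27 in odor (adjusted p = 0.0115) and -1.33 ± 0.27 in vehicle (adjusted p = 0.00179). In odor the call was lost without odor replicate 2 (-0.98, adjusted p = 0.0673) and after quantile normalization of all arrays (-0.78, adjusted p = 0.0735).

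Hes6, which opposes Hes1 in neuronal differentiation, had log2 signals of 4.93, 4.99, 6.10 and 5.66 in odor GFP+ arrays, against 5.28, 6.19, 5.16 and 6.41 in odor GFP- arrays. In vehicle it had 5.05, 4.70, 4.60 and 4.96 in GFP+ arrays, against 5.69, 5.83, 5.18 and 6.44 in GFP- arrays. The odor groups overlapped and the vehicle groups did not, and 1 vehicle GFP- array (replicate 4) was the only one above the floor. The difference was -0.34 ± 0.32 in odor (adjusted p = 0.546, 95% interval -1.03 to 0.34) and -0.96 ± 0.32 in vehicle (adjusted p = 0.0543). In vehicle it passed with the pool as a random block (adjusted p = 0.0312) or as a fixed term (adjusted p = 0.0497). The change of the Hes6 difference with odor was itself not called (0.61 ± 0.46, adjusted p = 1.00), so the 2 treatments were not shown to differ.

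Tex15, the germ cell gene, had log2 signals of 4.99, 5.55, 5.67 and 4.92 in odor GFP+ arrays, against 8.0, 7.46, 7.81 and 8.02 in odor GFP- arrays. In vehicle it had 5.05, 4.04, 4.65 and 5.21 in GFP+ arrays, against 8.15, 7.73, 7.78 and 7.63 in GFP- arrays. The gap between the lowest GFP- array and the highest GFP+ array was wider than the spread within any group. Tex15 was at least 2.13-fold lower in GFP+ cells in odor (adjusted p = 4.93e-07) and at least 2.58-fold lower in vehicle (adjusted p = 4.33e-08). These folds are bounds, each GFP+ array being taken at its background floor. The measured differences were -2.54 ± 0.25 in odor and -3.09 ± 0.25 in vehicle.

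Kit, the receptor for stem cell factor, had log2 signals of 3.87, 4.34, 3.47 and 3.73 in odor GFP+ arrays, against 8.08, 8.34, 7.81 and 8.06 in odor GFP- arrays. Vehicle values were 4.27, 4.53, 4.44 and 3.88 in GFP+ arrays, against 6.97, 8.45, 7.70 and 7.88 in GFP- arrays. All 8 GFP- arrays lay above their floor, and all 8 GFP+ arrays lay under the median background bin. Vehicle GFP- replicate 1 was the lowest of the GFP- arrays. Kit was at least 2.54-fold lower in GFP+ cells in odor (adjusted p = 1.70e-09) and at least 2.45-fold lower in vehicle (adjusted p = 2.06e-08). The measured differences were -4.22 ± 0.27 in odor and -3.47 ± 0.27 in vehicle, with the GFP+ side at background.

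Krt5, the basal keratin that pairs with Krt14, had log2 signals of 3.11, 3.80, 3.75 and 3.56 in odor GFP+ arrays, against 3.56, 3.20, 3.87 and 3.76 in odor GFP- arrays. In vehicle it had 4.13, 3.93, 4.19 and 3.28 in GFP+ arrays, against 3.27, 3.29, 3.99 and 3.51 in GFP- arrays. The groups overlapped in both treatments. The difference was -0.04 ± 0.24 in odor (adjusted p = 0.938, 95% interval -0.54 to 0.46) and 0.37 ± 0.24 in vehicle (adjusted p = 0.342, 95% interval -0.13 to 0.87). With each array centred on its median the vehicle difference became 0.73 and passed (adjusted p = 0.0226).

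Krt14 had log2 signals of 3.42, 3.42, 3.31 and 3.81 in odor GFP+ arrays, against 3.56, 2.86, 3.16 and 2.87 in odor GFP- arrays. The vehicle GFP+ arrays had 3.85, 3.44, 2.99 and 2.95, against 3.85, 3.15, 3.13 and 2.70 in vehicle GFP- arrays. Here too the groups overlapped, with differences of 0.38 ± 0.26 in odor (adjusted p = 0.373, 95% interval -0.16 to 0.92) and 0.10 ± 0.26 in vehicle (adjusted p = 0.846, 95% interval -0.44 to 0.64). Centring the arrays gave 0.73 in odor, which passed (adjusted p = 0.0299).

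Trp63, which encodes p63, the factor that maintains horizontal basal cells, had log2 signals of 3.68, 3.28, 4.35 and 3.21 in odor GFP+ arrays, against 3.45, 3.09, 4.06 and 2.89 in odor GFP- arrays. Its vehicle values were 3.64, 3.39, 3.02 and 3.38 in GFP+ arrays, against 3.21, 3.99, 3.13 and 2.98 in GFP- arrays. The differences were 0.26 ± 0.29 in odor (adjusted p = 0.625, 95% interval -0.36 to 0.88) and 0.03 ± 0.29 in vehicle (adjusted p = 0.967, 95% interval -0.59 to 0.64). All 16 values of each of Krt5, Krt14 and Trp63 lay under the median background bin, so these 3 horizontal basal cell genes were not well above background in either fraction, and no basal stem cell signal was seen in them. Markers of other tissues that could contribute keratins, respiratory and squamous epithelium (4 measured) and myoepithelium and smooth muscle (5 measured), were above the floor on no array.

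Because both fractions of a pool came from the same mice, the difference can also be read within each pool. Neurog1, Insm1, Tex15 and Kit were lower in the GFP+ sample in 8 of 8 pools. Kit ranged from -4.34 to -2.70, Tex15 from -3.69 to -1.91, Insm1 from -2.05 to -0.85 and Neurog1 from -1.95 to -0.40. Hes6 was lower in 7 of 8 pools, between -1.48 and 0.94, the exception being odor pool 3. Krt5 was lower in 4 pools, Krt14 in 3 and Trp63 in 2. Without the replicate 1 pools of both treatments, Neurog1 (adjusted p = 0.0193 in odor and 0.00325 in vehicle), Insm1 (0.0361 and 0.0110), Tex15 (6.35e-05 and 5.45e-06) and Kit (2.35e-07 and 6.78e-07) were still called by limma, and Hes6 was not (0.651 and 0.0884).

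**Figure D2:**
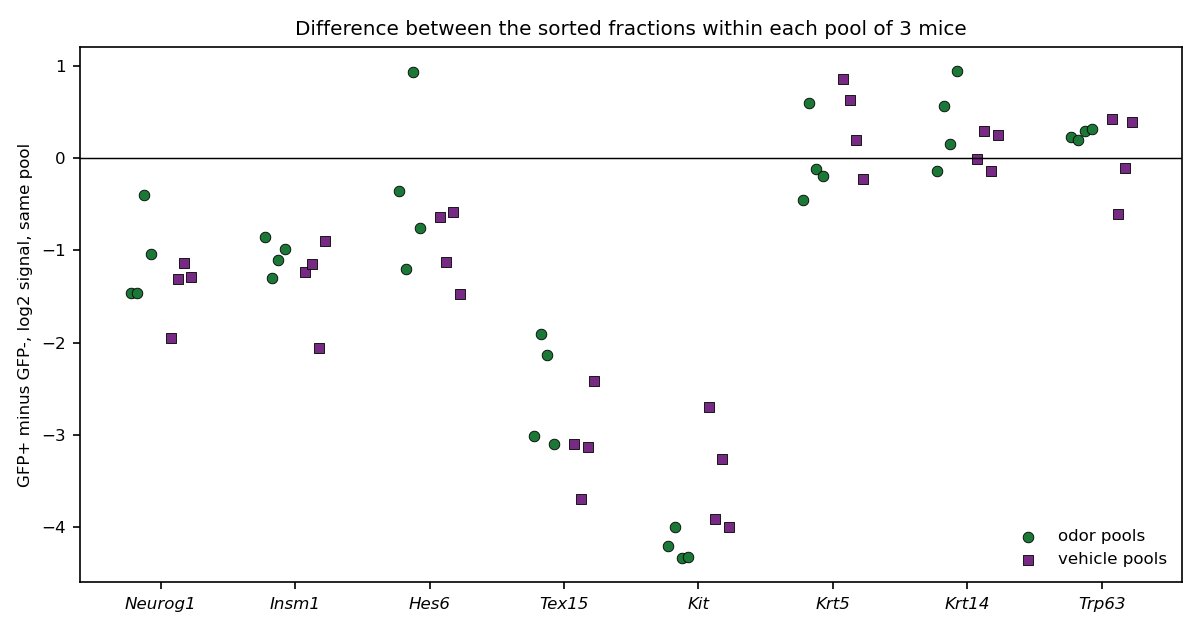
Log2 signal of the GFP+ sample minus that of the GFP- sample of the same pool of 3 mice, for each of the 8 genes and 8 pools (odor and vehicle). Kit, Tex15, Insm1 and Neurog1 lie under 0 in all 8 pools, and Krt5, Krt14 and Trp63 lie on both sides of 0.

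The 4 called members were each lower in GFP+ cells, which by itself raises r between them over the 16 arrays. Pearson r between Kit and Tex15 was 0.92 over the array values and -0.45 over deviations from the 4 group means. Between Neurog1 and Kit the 2 values were 0.86 and -0.07, and between Neurog1 and Insm1 0.75 and 0.15. The arrays form 2 clusters by fraction and share their pools, so these are descriptions without a test. Neurog1 and Insm1 lay under the floor on every array, so their deviations do not show whether the members move together within groups. Among 9327 named genes above the floor in a group, the closest to Kit over the array values were E2f2 (r = 0.988), a cell cycle transcription factor, Ifitm2 (0.987), an interferon-induced membrane protein, and Sdc4 (0.985), a cell surface proteoglycan. Tex15 was closest to the receptor genes Olfr487 (0.982) and Olfr1495 (0.982) and to Anxa4 (0.976), an annexin. For Neurog1 they were Kirrel3 (0.940), Anapc5 (0.934) and Mrgpra2a (0.928), and for Insm1 they were Cpa3 (0.936), a mast cell protease, Olfr1219 (0.893) and Smchd1 (0.890). The split by fraction enters each of these r too. Over deviations from the 4 group means, other genes came closest to these members. They were Chtf8 for Kit (0.795), Gxylt1 for Tex15 (0.782), Shld2 for Neurog1 (0.926) and Olfr285 for Insm1 (0.856).

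The question of the odor comparison is whether 2-hexanone changed a member's level within a sorted fraction. In GFP+ cells no member passed, beside 2 of 22206 probe sets (0.00901%), and 869 probe sets had an unadjusted p under 0.05. Among members only Tex15 was one of them, at 0.54 ± 0.25 in odor GFP+ against vehicle GFP+ arrays (limma's unadjusted p = 0.0442, adjusted p = 1.00). Every GFP+ array of Tex15 lay under the floor, so this difference lies within background. In GFP- cells no member passed, beside 0 probe sets (0%), and 547 probe sets and no member had an unadjusted p under 0.05. The shift of the fraction difference between odor and vehicle was also called for no member, beside 2 probe sets (0.00901%), while 650 probe sets and no member had an unadjusted p under 0.05. The estimate farthest from 0 was that of Kit, whose fraction difference in odor minus that in vehicle was -0.75 ± 0.38 (95% interval -1.54 to 0.04, adjusted p = 1.00). Its GFP+ side, too, lay under background on every array. For Kit in GFP- cells, odor against vehicle, the estimate was 0.32 with a 95% interval of -0.24 to 0.88.

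**Figure D3:**
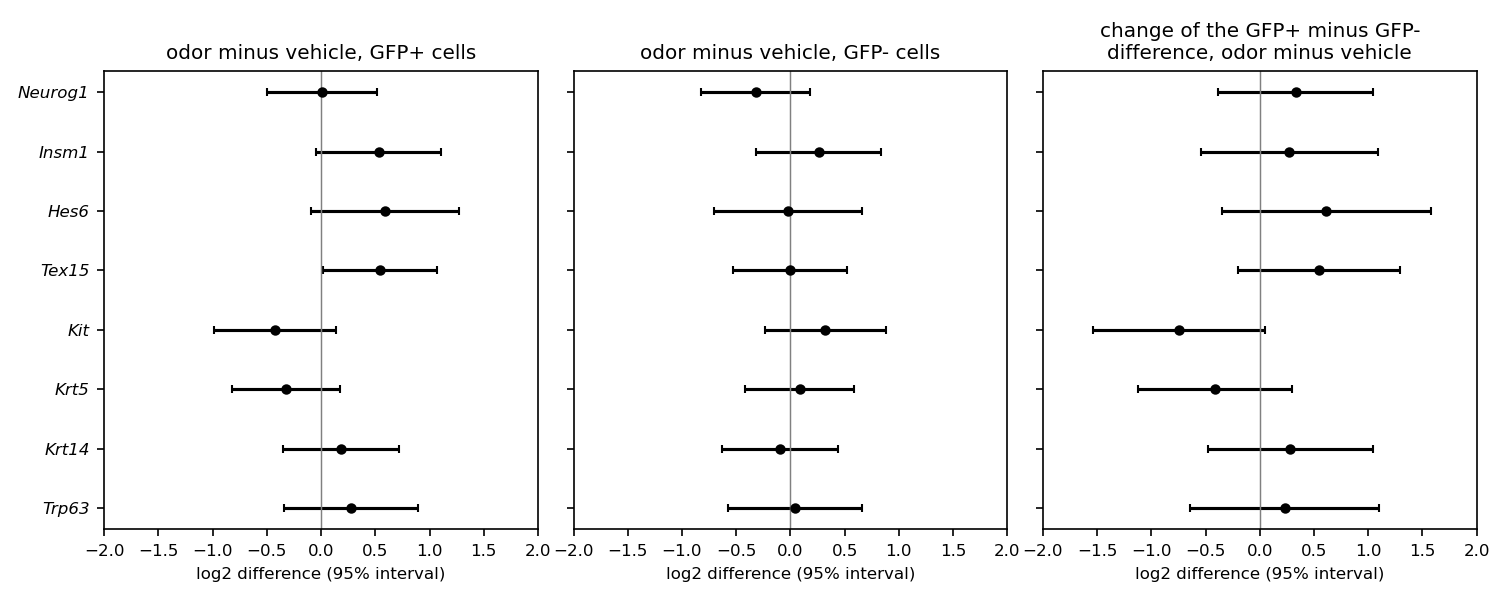
Log2 difference of odor against vehicle for the 8 genes in GFP+ cells, in GFP- cells, and for the shift of the fraction difference (GFP+ minus GFP-). Points are limma estimates with 95% intervals over 16 arrays. Only the Tex15 interval in GFP+ cells (0.02 to 1.07) excludes 0, with all its GFP+ arrays under the background floor, and no adjusted p is under 0.05.

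The genes around the members were read from 6 pathway lists. Of 8 measured globose basal regulators, 4 were lower in GFP+ cells in each treatment and none was higher, with medians of -0.73 in odor and -0.81 in vehicle. Cxcr4, a chemokine receptor, was at least 18.2-fold lower in odor and at least 20.9-fold lower in vehicle. Sox2, a stem cell factor, differed by -1.73 in odor and -1.87 in vehicle. It was above the floor on 2 odor GFP- arrays, 1 vehicle GFP- array and no GFP+ array. The eye and olfactory factor Pax6 differed by -1.11 and -0.78, under the floor on every array. Ezh2, a histone methyltransferase, differed by -0.90 and -0.94. Hes5 (0.19 and 0.21) and Lgr5 (-0.56 and -0.83, under the floor on every array) did not pass.

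In the proneural network, 9 of 25 measured genes were lower and 1 was higher in each treatment, with medians of -0.23 in odor and -0.42 in vehicle. Nhlh1, a factor of newly committed neurons, was at least 5.70-fold lower in odor and at least 10.6-fold lower in vehicle. Btg2, an antiproliferative gene of neurogenic divisions, differed by -5.50 and -5.64, Sox11 by -2.89 and -2.92, and St18 by -2.66 and -2.37 with all arrays under the floor. Ebf1 (0.28 and 0.36) and Ebf2 (0.31 and 0.29), factors that mature olfactory neurons keep, did not pass. Id4, an inhibitor of basic helix-loop-helix factors, was the gene that was higher, by 0.54 in odor and 0.56 in vehicle. Other Id genes did not share this direction. Id2 was called lower in both treatments (-1.92 and -1.60), and Id1 was called lower in vehicle (-1.67) and not called in odor (-0.82). Id3 (-0.06 and -0.46) did not pass.

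Of 13 measured Kit signalling genes, 4 were lower in odor and 7 in vehicle and none was higher, with medians of -0.52 and -0.59. Ptpn6, a phosphatase of blood cells that damps Kit, differed by -2.78 and -2.85, and Pik3r1, a regulatory subunit of phosphoinositide 3-kinase, by -1.80 and -1.77. Sh2b3, an adaptor, differed by -1.56 and -1.54 with all arrays under the floor, and Shc1 by -0.77 and -0.79. Sos1 (0.58 and 0.45) and Jak2 (-0.32 and -0.19) did not pass. Of 22 measured Notch pathway genes, 5 were lower in odor and 3 in vehicle, with 1 higher in each. Lfng, a glycosyltransferase that modifies Notch, differed by -2.54 and -2.32 and Mfng by -2.67 and -2.60, each above the floor on 3 of 8 GFP- arrays. Jag1, a Notch ligand, was higher by 0.76 and 0.94. Numb (0.16 and 0.09) and Rbpj (-0.12 and -0.05) did not pass.

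Of 15 measured basal adhesion and p63 partner genes, 2 were higher and 4 lower in odor, and 1 was higher and 1 lower in vehicle, with medians of 0.04 and 0.04. Without the replicate 1 pools the counts were 2 higher and 3 lower in odor and none in vehicle. Cdh3, a cadherin, was higher in GFP+ cells by 1.17 and 0.88 and stood above the floor on 2 and 3 GFP+ arrays. Dst, a cytoskeletal linker, was higher in odor (0.90) and not called in vehicle (0.58). Itga6, an integrin of basal cells, was lower by -1.30 and -1.47 and stood above the floor on 3 GFP- arrays in each treatment. Icam1, under the floor throughout, was lower in odor (-1.49) and not called in vehicle (-0.93). Itga3 (0.23 and 0.43) and Sfn (0.29 and 0.15) did not pass. All 16 measured germline and piRNA genes, the company of Tex15 in the testis, lay under the floor on every array, and 2 of them (Tdrd9 and Sycp1, 0.78 and 0.90) were called higher in odor and none in vehicle. With the pool as a random block 3 were higher in odor and 1 in vehicle, as a fixed term 2 and 2, and without the replicate 1 pools 1 and 0. No gene of any of the 6 lists was called for odor against vehicle in either fraction. The lists' counts describe them beside 14.9% of all probe sets called in odor and 15.7% in vehicle, and some genes named here, among them Cxcr4 and Ptpn6, are also abundant in blood cells. With arrays centred on their medians the counts turned towards GFP+ cells for some lists: basal adhesion and p63 partner genes had 5 higher and 2 lower in odor and 5 and 1 in vehicle, germline genes 9 and 7 higher, and Notch genes 5 higher and 5 lower in odor and 6 and 3 in vehicle. Centring gave the proneural network 4 higher and 8 lower in odor and 7 and 8 in vehicle, Kit signalling 1 and 3 in odor and 2 and 4 in vehicle, and the globose basal regulators 0 and 3 in odor and 0 and 2 in vehicle.

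**Figure D4:**
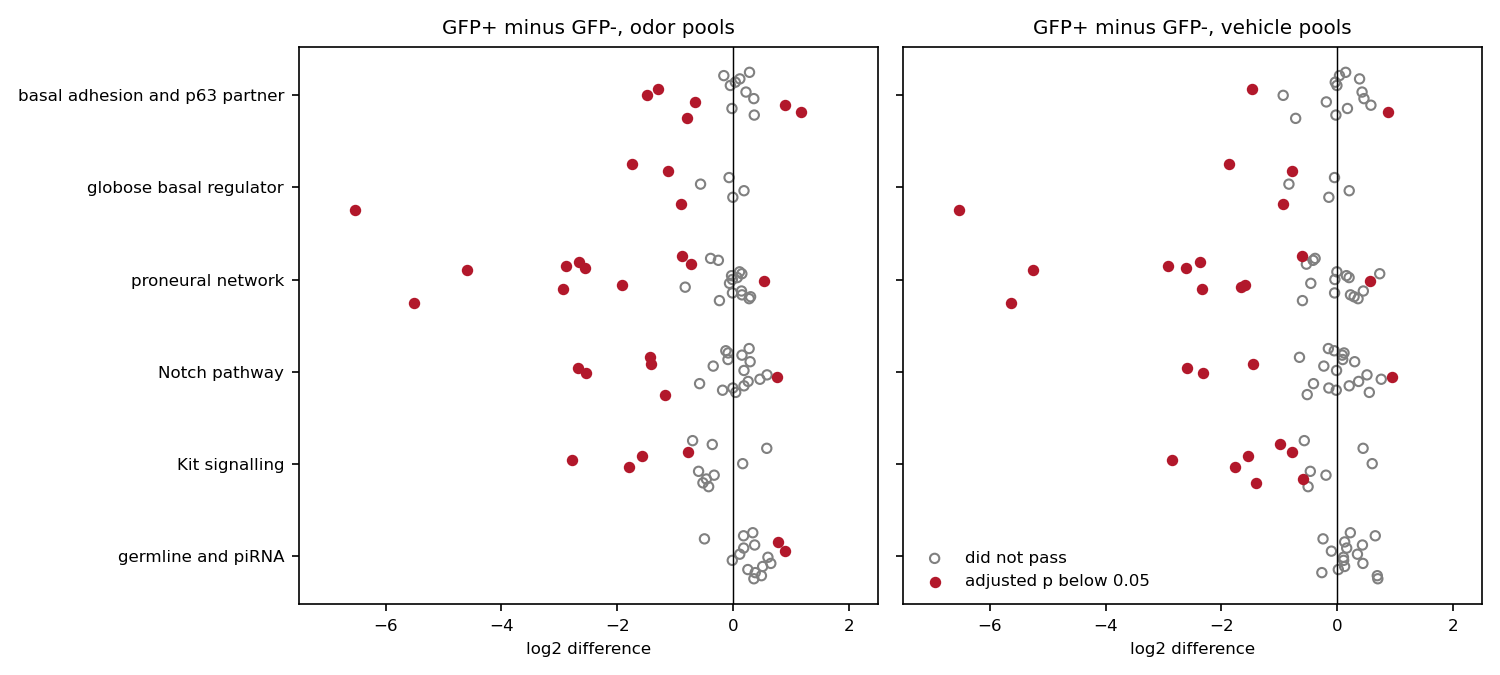
Log2 difference of GFP+ minus GFP- signal for each measured gene of the 6 pathway lists, in odor (left) and in vehicle (right). Points are genes, filled in red where adjusted p was under 0.05 and open otherwise. Cxcr4, Nhlh1 and Btg2 lie farthest to the left in both panels, and the germline list has no called gene under 0.

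Other cell types also differed between the fractions. Of 9 measured leukocyte markers 9 were lower in GFP+ cells in each treatment, with log2 summed levels of 8.72 to 9.28 in odor GFP+ arrays, against 18.82 to 19.14 in odor GFP- arrays, and 8.23 to 9.82 in vehicle GFP+ arrays, against 17.4 to 19.8 in vehicle GFP- arrays. Of 10 measured markers of proliferating cells 8 were lower in odor and 9 in vehicle, as were 5 and 6 of 9 for immature neurons, 6 and 6 of 7 for sustentacular cells and 1 and 1 of 4 for Bowman glands (2 in odor with the pool as a block). Of 5 melanocyte markers, another cell type with Kit, none was called in either treatment. Kit is carried by mast cells, whose markers Hdc (at least 11.7-fold lower in odor and 17.9-fold in vehicle) and Cpa3 (-2.75 and -2.58) were lower in GFP+ cells, while the other 7 of 9 measured mast cell markers lay under the floor on all arrays. Of these 7, Mcpt4, a mast cell protease, was called higher in GFP+ cells in odor (0.97, adjusted p = 0.0303) and not in vehicle (0.32, adjusted p = 0.513). Mast cell markers summed to 7.28 to 7.73 in odor GFP+ arrays, against 10.0 to 11.2 in odor GFP- arrays, and to 7.20 to 7.58 in vehicle GFP+ arrays, against 9.65 to 12.3 in vehicle GFP- arrays. Of the 9 only Hdc and Cpa3 lay above the floor, on GFP- arrays alone, so this sum does not stand for the whole list. The list's median difference was -0.08 in odor and -0.31 in vehicle. Vehicle GFP- replicate 1, where Kit was lowest (6.97), also had the lowest leukocyte (17.4), mast cell (9.65) and proliferating cell (14.3) level of the GFP- arrays. The same array had the highest immature neuron level of the GFP- arrays (16.38), a sustentacular level (15.83) under only that of odor GFP- replicate 1 (15.85), and the highest Tex15 signal (8.15). At the other end, vehicle GFP- replicate 4 had the highest leukocyte (19.75), mast cell (12.31) and proliferating cell (15.64) level of the GFP- arrays. Its Kit signal was 7.88, under the 8.45 of vehicle GFP- replicate 2 and the 8.08, 8.34 and 8.06 of odor GFP- replicates 1, 2 and 4. It was above the 6.97 and 7.70 of vehicle GFP- replicates 1 and 3 and the 7.81 of odor GFP- replicate 3. The part of these other cells in the lower Kit, Tex15, Insm1 and Neurog1 signals was not tested.

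**Figure D5:**
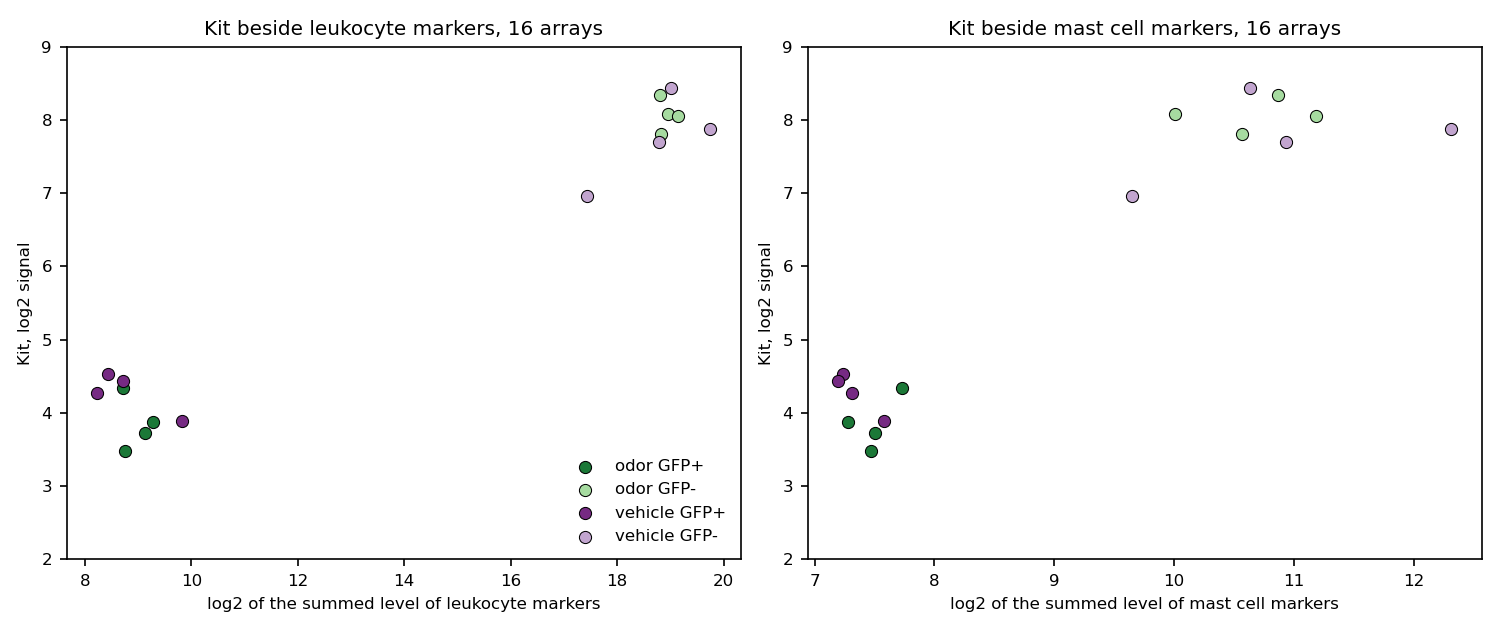
Kit log2 signal against the log2 summed level of leukocyte markers (left) and mast cell markers (right) on 16 arrays. Each point is an array, coloured by group. Of the 9 mast cell markers summed, 7 lay under the background floor on all arrays. The GFP- arrays lie at the upper right and the GFP+ arrays at the lower left of each panel, and vehicle GFP- replicate 1 is the lowest GFP- array for Kit.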

How the data were processed

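RNA of GFP+ and GFP- cells from 8 pools of 3 mice was measured on 16 arrays, per the labels. Deposited were log2 signals, 1 per probe set, which the submitters' processing notes attribute to Affymetrix Expression Console. The program's version and the array's genome build were not given in the sources used here. Of 28846 rows, 6640 controls were left out (6546 rows with names in MG, 63 spike-in and 31 manufacturer rows), and 22206 probe sets were tested.

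A platform annotation named 19572 probe sets, all matched to RefSeq genes of GRCm38.p6, and 2634 stayed unnamed. Of 55 genes with several probe sets, the one of highest mean was used. Groups and replicate numbers come from the sample titles. limma 3.58.1 in R 4.3.3 (lmFit and eBayes, 4 group means, no covariate, 12 residual degrees of freedom) tested 5 contrasts, with calls at a Benjamini-Hochberg adjusted p under 0.05. The script was tested on simulated data. Figures were drawn in Python 3.11.15 with matplotlib 3.10.9. The precision is limited by the number of arrays. The members, the gene lists and the rule for named genes (up to 4 called and 2 uncalled genes per list, and 3 most similar genes per member) were chosen with earlier results of these data known. Hdc, Cpa3, Mcpt4, Ano2, Adcy3, Stoml3, Id1, Id2, Id3, Id4 and Jag1 were named after their values were seen.

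Both fractions of 1 pool come from the same mice, by the labels' numbers of mice and pools. Pool mates' deviations from their group mean gave r of 0.0749 to 0.425 (odor pools) and 0.0136 to 0.352 (vehicle pools). The best match was the pool mate for 8 of 8 odor and 4 of 8 vehicle samples. Same-numbered samples of the other treatment, from other mice, gave 0.0492 to 0.419 (GFP+) and 0.0310 to 0.354 (GFP-). These r therefore cannot show which samples share mice. A bound ("at least") sets the brighter mean against the mean of each dim array's floor or value, whichever is higher. Alternatives tried were the pool or the replicate number as a block, quantile normalization, centring, leaving out the lowest 20% or 40% of probe sets, a trended robust prior, array weights, only the arrays compared, leaving out each pool, leaving out both replicate 1 pools, and 2 floors. The omission of both replicate 1 pools and the median background bin as floor were chosen after seeing the data.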

Additional observations from a re-analysis of the deposited data

How the results depend on the processing

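Kit and Tex15 were called lower in GFP+ cells in both treatments under all 20 alternatives that gave a tested value, and Neurog1 under all 18. Kit ranged from -4.29 to -3.87 in odor and from -3.73 to -3.11 in vehicle. Insm1 was called in 18 of 20 in odor and 20 of 20 in vehicle. Hes6 in vehicle passed in 7 of 20, among them with the lowest 20% of probe sets left out (adjusted p = 0.0481), the lowest 40% (0.0425), only the arrays compared (0.0328) and without odor replicate 3 (0.0341). In all, 728 of 746 recomputed member differences kept their side of the threshold or stayed within the replicate spread. Among differences called before or after the change of setting, 0 changed sign. Some uncalled differences did change sign, among them, for GFP+ against GFP- in odor, Krt5 (-0.26 to 0.31) and Hes6 (-0.77 to 0.01). The number of members called ranged from 3 to 5 in odor and from 4 to 5 in vehicle, and was 0 in all contrasts of odor against vehicle. Leaving out the lowest 20% or 40% removed Neurog1, Krt5, Krt14 and Trp63 and gave them no value.

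With arrays centred on their medians, all probe sets' median difference was 0.49 in odor and 0.50 in vehicle, against 0.14 and 0.14, and 10258 (8534 higher, 1724 lower) and 10736 (8986 higher, 1750 lower) probe sets were called. Centring adds the gap between array medians, which were 5.70 to 5.76 in GFP+ arrays and 6.06 to 6.12 in GFP- arrays. Kit, Tex15, Insm1 and Neurog1 were still lower in GFP+ cells after it. Arrays raised to the floor gave Kit -1.34 in odor and -1.29 in vehicle, and Tex15 -1.09 and -1.37. Neurog1 and Insm1 lay under the floor on every array, so raising them left only the gap between the floors (0.02 in odor and -0.10 in vehicle) and none of their measured differences. Raised to the median bin, Kit gave -2.77 and -2.52, and Insm1 in vehicle -0.50.

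The replicate block with pool as a fixed term called 0 probe sets for the shift of the fraction difference with odor, and the replicate number as a fixed term called 5 for odor in GFP+ and 1 in GFP- cells. Both pool blocks changed no other member call than Hes6 in vehicle. By the labels, same-numbered odor and vehicle samples share only a number, and whether it marks a shared day or batch is not stated. In the data, 7 of 8 GFP+ and 6 of 8 GFP- samples correlated best with their own number. Their deviations correlated at 0.0492 to 0.419 in GFP+ cells and at 0.0310 to 0.354 in GFP- cells, so some variation followed the number. For odor in GFP- cells 1 probe set was called under both quantile normalizations, with the lowest 40% left out, with the trended robust prior and with array weights. For odor in GFP+ cells only the arrays compared called 1. The change of the difference called 0 to 1 with a pool left out, and 0 without both replicate 1 pools. The causes were not tested. Levels under the floor limit Neurog1, Insm1, Hes6, Krt5, Krt14 and Trp63, whose differences are not folds.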
